A study of Mus musculus with 4 samples.

Results

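Oxidative phosphorylation genes encode the subunits of the respiratory chain and of ATP synthase. They were followed here in regulatory T (Treg) cells that were sorted from the visceral adipose tissue (VAT) of males. Members were taken by symbol: nuclear subunit genes of complex I (Ndufa, Ndufb, Ndufc, Ndufs, Ndufv), complex II (Sdha to Sdhd), complex III (Uqcr), complex IV (Cox4i to Cox8) and complex V (Atp5), and the protein-coding genes of the mitochondrial genome (mt-). Assembly factors named Ndufaf and pseudogenes were left out. The rule gave 98 members of 32285 gene rows, 85 encoded in the nucleus and 13 in mitochondrial DNA (mtDNA).

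There were 2 pools of cells, each a mixture of 2 conditions marked with hashtag antibodies. In the diet pool, HFD cells came from 5 mice fed a high-fat diet for 22 weeks and NCD cells from 5 mice fed normal chow. All were Foxp3thy1.1 PpargTdt reporter mice aged 23 to 27 weeks. In the Srebf2 pool, KO cells came from 4 Srebf2flox/flox mice and WT cells from 4 Srebf2WT/WT mice, all 25 weeks old. Both genotypes carried Foxp3YFP-cre, which expresses Cre recombinase in Foxp3-expressing cells, so the WT mice carry the same Cre. Mice of a condition share 1 hashtag and cannot be told apart, so each condition is 1 sample with no replicate check and no test. Every interval below is a 95% interval for counting error only.

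The electron transport chain passes electrons from NADH and succinate to oxygen and pumps protons, and ATP synthase uses the proton gradient to make ATP. Complexes I, III, IV and V combine subunits of both genomes, and complex II is wholly nuclear. In Treg cells, oxidative metabolism is known to sustain suppressive function, and the VAT Treg population that carries ST2, the interleukin-33 receptor encoded by Il1rl1, has been studied for its ties to metabolic health.

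The values are unique molecular identifiers (UMIs) from a 5′ single-cell library, summed over the cells of a condition and divided by all UMIs of that condition (CPM, counts per 1000000). After filtering there were 4512 HFD, 4938 NCD, 3956 KO and 3490 WT cells, with 18543516, 22200627, 16444262 and 14010241 UMIs and medians of 3194, 3989, 3641 and 3590 UMIs per cell. The pools shared 135 of their 11456 and 9036 cell barcodes. Srebf2 stood at 3.95 CPM in KO and 65.7 CPM in WT cells, the direction of the labels, and at 39.9 CPM in HFD and 67.6 CPM in NCD cells. Foxp3 was at 162 CPM in HFD, 213 in NCD, 262 in KO and 253 in WT cells, and all 6 Treg markers were present in every condition. The Treg marker Il2ra differed between the diets, at 193 CPM in HFD and 656 in NCD cells, with 554 in KO and 642 in WT cells. Il1rl1 was at 131 CPM in HFD, 803 in NCD, 565 in KO and 691 in WT cells. Brown adipocyte markers (Ucp1, Cidea) were at 0 in NCD, KO and WT and held 0.0539 CPM in HFD, and the 4 adipocyte and 3 muscle markers summed to at most 1.35 and 0.304 CPM.

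Of the 98 members, 90 reached 5 CPM, all 13 mtDNA genes and 77 nuclear genes. The other 8 were alternative isoforms placed with complex IV: Cox4i2, Cox6a2, Cox6b2, Cox7a1, Cox7b2, Cox8b, Cox8c and Ndufa4l2, several of them known from heart, skeletal muscle or testis. None passed 1.85 CPM in any condition. Cox7b2 had 0 UMIs throughout, which allows up to 0.162 CPM in HFD, 0.135 in NCD, 0.182 in KO and 0.214 in WT cells (3 counts of each total). Their ubiquitous partners were measured at far higher counts: Cox4i1 was at 675 CPM in HFD, 674 in NCD, 670 in KO and 674 in WT cells, and Cox8a at 687, 588, 634 and 625 CPM in the same order. Many members have processed pseudogene copies in the mouse genome, and the sources used here do not say how shared reads were counted. The level of single members may therefore be understated. Ndufb4, an accessory subunit of complex I, was at 6.09 CPM in HFD, 5.45 in NCD, 13.9 in KO and 15.9 in WT cells.

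Promoters are shown for 3 members that mark the range of the diet comparison below: Ndufa4, the farthest above equal levels, Ndufa6, a higher member that holds a motif of a respiratory gene regulator, and Cox6a1, the lowest. Each runs 5′ to 3′ on the gene's strand from 250 bases before to 50 bases after the RefSeq start (GRCm38.p6). Capitals mark matches to the NRF1 core GCGCATGC or the ETS core CCGGAAG on either strand. Neighbouring NRF1 matches in Cox6a1 overlap.
Ndufa4 promoter (chr6:11907401-11907700, minus strand): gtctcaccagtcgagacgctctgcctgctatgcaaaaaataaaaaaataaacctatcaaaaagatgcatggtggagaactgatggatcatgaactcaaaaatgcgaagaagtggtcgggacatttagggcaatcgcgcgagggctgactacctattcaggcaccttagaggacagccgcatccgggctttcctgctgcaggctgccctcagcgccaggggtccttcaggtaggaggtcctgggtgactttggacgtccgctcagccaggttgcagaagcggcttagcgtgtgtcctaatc
Ndufa6 promoter (chr15:82354242-82354541, minus strand): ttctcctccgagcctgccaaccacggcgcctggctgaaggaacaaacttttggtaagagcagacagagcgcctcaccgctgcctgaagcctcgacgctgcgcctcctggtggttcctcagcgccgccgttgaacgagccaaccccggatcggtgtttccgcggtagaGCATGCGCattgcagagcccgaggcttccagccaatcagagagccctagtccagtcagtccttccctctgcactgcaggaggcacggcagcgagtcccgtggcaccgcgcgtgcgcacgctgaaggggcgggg
Cox6a1 promoter (chr5:115348909-115349208, minus strand): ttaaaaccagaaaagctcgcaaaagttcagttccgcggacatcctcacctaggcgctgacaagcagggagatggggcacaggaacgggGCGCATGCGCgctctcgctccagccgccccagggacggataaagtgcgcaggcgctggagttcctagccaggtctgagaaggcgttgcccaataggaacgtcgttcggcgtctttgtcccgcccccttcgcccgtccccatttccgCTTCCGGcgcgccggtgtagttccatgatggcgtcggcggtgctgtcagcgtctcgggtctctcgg

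NRF1 and the ETS factor GABP are known regulators of nuclear respiratory genes, as are YY1 and the estrogen-related receptors (ERR). A RefSeq promoter was matched for 69 of the 85 nuclear members. The NRF1 core was in 10 of these 69 (14.5%), against 3.05% of 27025 genes with a promoter of the same length. These genes were taken whatever their expression, so the shares do not set the members apart from expressed genes in general. The ETS core was in 17 members (24.6%) against 9.93% of all genes, the YY1 core AAGATGGC in 10 (14.5%) against 3.19%, and the ERR core AAGGTCA in 8 (11.6%) against 5.38%. Of the 9 nuclear members that were higher in HFD by the rule of size below, 7 had a matched promoter. NRF1 was found in Atp5g2 and Ndufa6, YY1 in Ndufa3 and Ndufs4, ERR in Atp5g3 and ETS in none, while the Ndufa4 window shown above held none of the 4 cores.

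The diet comparison asks how VAT Treg cells differ after a long high-fat diet. Summed over all cells, both genomes' members were higher in HFD. The nuclear members made up 17862 CPM (17801 to 17923) in HFD and 15768 CPM (15716 to 15820) in NCD cells, 13.3% more (log2 ratio 0.18, 0.17 to 0.19). The mtDNA members made up 16058 CPM (16000 to 16115) in HFD and 13675 CPM (13626 to 13724) in NCD cells, 17.4% more (log2 ratio 0.23, 0.22 to 0.24). Genes were called higher or lower by a rule of size, a log2 ratio of at least 0.32 in either direction (25% more in the higher condition) at 5 CPM or more in that condition. The rule tests nothing. By that rule 14 of 90 members were higher and 0 lower, beside 23.6% of 10024 genes higher and 15.8% lower. The share of members past the rule, 15.6%, was below that of all genes. Here and below, shares of all genes include genes near the 5 CPM floor, where counting error is larger than for most members. A share for genes of like level was not computed. The members' median log2 ratio was 0.18, beside 0.08 for all genes, and 77 of the 90 lay above 0, as did 6048 of all 10024 genes. These sizes depended on which cells were counted and how. The 14 became 6 with ratios centred on the median of all genes, 5 with the cell strata described below reweighted to equal shares and 2 in the cells with none of the stratum UMIs. In those last cells 13.6% of all genes were higher. The share of all genes was not computed for centred or reweighted ratios. The nuclear log2 ratio of 0.18 became 0.10 with centred ratios, 0.06 as the mean of per-cell shares and 0.07 with strata reweighted, and the mtDNA log2 ratio became 0.15 with centred ratios. Cytosolic ribosomal protein genes stood at 233869 CPM in HFD and 199988 CPM in NCD cells, a log2 ratio of 0.23, so another abundant gene class was shifted about as far.

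Ndufa4 stood apart from all other members. Its protein, once assigned to complex I, is a subunit of complex IV. Ndufa4 was at 284 CPM in HFD and 108 CPM in NCD cells, 2.64-fold higher (log2 ratio 1.40, 1.33 to 1.47), with 190 CPM in KO and 160 CPM in WT cells. The NCD cells were the lowest of the 4 conditions. Without Ndufa4 the nuclear sum had a log2 ratio of 0.17.

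The other nuclear members past the rule belonged to complexes I, III and V. In complex III, the small subunits Uqcr10 and Uqcrq were at 207 and 172 CPM in HFD cells, against 148 and 132 CPM in NCD cells (log2 ratios 0.49 and 0.37). In complex I, the accessory subunits Ndufa3, Ndufa6 and Ndufs4 had log2 ratios of 0.42, 0.37 and 0.33. Ndufa3 was at 343 CPM in HFD and 256 CPM in NCD cells. In complex V, Atp5g3 was at 553 CPM in HFD and 412 CPM in NCD cells (0.42), Atp5g2 at 669 CPM in HFD and 532 CPM in NCD cells (0.33), and the accessory gene Atp5mpl at 290 CPM in HFD and 227 CPM in NCD cells (0.35). Atp5g1, Atp5g2 and Atp5g3 encode the same mature c subunit of the ATP synthase rotor, and Atp5g1 lay just under the rule at 0.30.

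No member was lower by the rule. Cox6a1, the widely expressed isoform of a complex IV subunit, was lowest at 208 CPM in HFD and 233 CPM in NCD cells (log2 ratio −0.17, −0.23 to −0.10). Ndufa7 (−0.12), Ndufa9 (−0.11), Cox5a (−0.10), Ndufs5 (−0.10) and Uqcr11 (−0.08) came next, of which Ndufa9 had an interval that reaches 0. The succinate dehydrogenase genes of complex II, which also serve the tricarboxylic acid (TCA) cycle, had 0 of 4 past the rule. Sdha was at 122 CPM in HFD and 108 CPM in NCD cells (0.18), Sdhb at 134 CPM in HFD and 136 CPM in NCD (−0.03), Sdhc at 50.9 CPM in HFD and 49.1 CPM in NCD (0.05), and Sdhd at 71.0 CPM in HFD and 61.8 CPM in NCD (0.20). The intervals of Sdha and Sdhd lay above 0, and those of Sdhb and Sdhc reached 0. Of the supercomplex factor Cox7a2l, HFD cells held 225 CPM and NCD cells 183 CPM (0.30).

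By complex, the nuclear sums had log2 ratios of 0.14 for complex I (36 members), 0.09 for complex II (4), 0.22 for complex III (8), 0.18 for complex IV (20) and 0.21 for complex V (17). All 17 nuclear complex V members lay above 0, from 0.00 to 0.42, beside a median of 0.08 for all genes. Under other settings some lay below 0, with lowest values of −0.105 for Atp5d and −0.121 for Atp5f1. The mtDNA sums had log2 ratios of 0.27 for complex I (7 members), 0.65 for complex III (1), 0.12 for complex IV (3) and 0.34 for complex V (2).

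**Figure D1:**
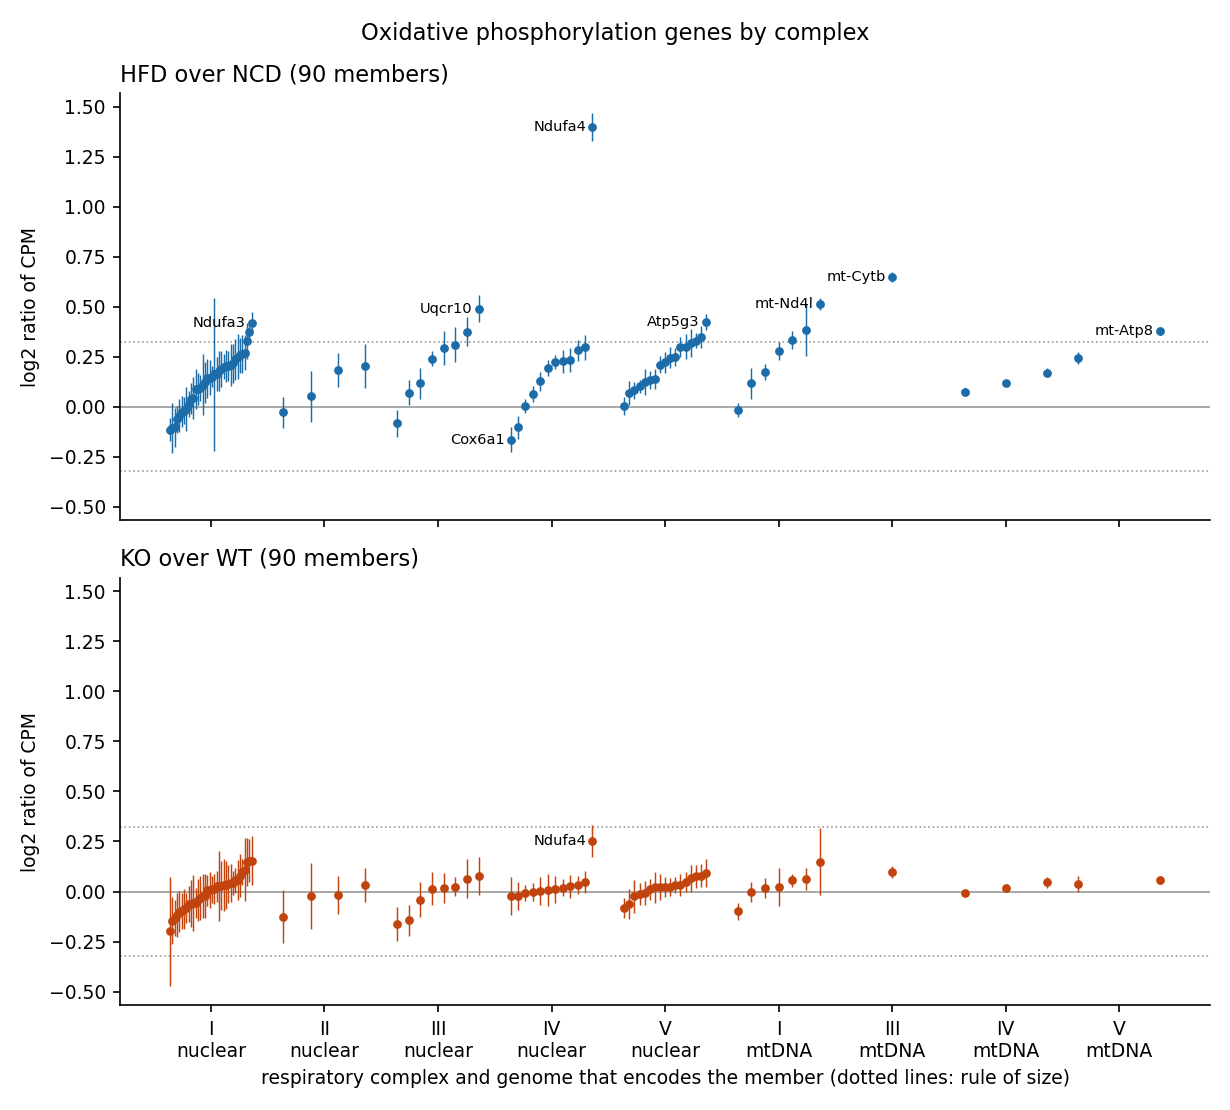
Log2 ratio of CPM for the 90 members at 5 CPM or more, by complex and encoding genome, for HFD over NCD (above) and KO over WT (below). Points are members, bars are 95% counting intervals and dotted lines mark the rule of size, log2 ratios of 0.32 and −0.32. In HFD over NCD, Ndufa4 lies at 1.40 and 14 members pass the upper line, while in KO over WT none passes either line.

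In the Srebf2 pool, the comparison asks what changes when Treg cells lose SREBP2, the activator of cholesterol synthesis genes. The oxidative phosphorylation genes lay close to equal levels. The nuclear members made up 16353 CPM (16292 to 16415) in KO and 16220 CPM (16154 to 16287) in WT cells, a log2 ratio of 0.01 (0.00 to 0.02). The mtDNA members made up 15147 CPM (15088 to 15207) in KO and 14879 CPM (14816 to 14943) in WT cells, a log2 ratio of 0.03 (0.02 to 0.03). By the rule of size 0 of 90 members were higher and 0 lower, beside 5.41% of 9822 genes higher and 4.90% lower. The median was 0.02 for the members and 0.00 for all genes.

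Ndufa4 was also the highest member in KO, at 190 CPM against 160 CPM in WT cells (log2 ratio 0.25, 0.17 to 0.33). After it came Ndufa10 (0.15), Ndufs4 (0.15), mt-Nd6 (0.15), Ndufb2 (0.15) and Ndufa9 (0.11), of which mt-Nd6 and Ndufa9 had intervals that reach 0. At the low end, among members at 20 CPM or more, Uqcrq was at 142 CPM in KO and 159 CPM in WT cells (−0.16, −0.25 to −0.08), followed by the NADH-binding subunit Ndufv1 (−0.15), Uqcr11 (−0.14), Ndufs7 (−0.13), Sdhd (−0.13) and Ndufs3 (−0.12), of which Sdhd had an interval that reaches 0. Below 20 CPM, Ndufb4 was at 13.9 CPM in KO and 15.9 CPM in WT cells (−0.20, −0.47 to 0.07). The other succinate dehydrogenase genes lay between −0.02 and 0.03. All these ratios, that of Ndufa4 included, are over all cells, and KO and WT differ in the shares of the cell strata described below.

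The 13 mtDNA genes encode core subunits. Cytochrome b of complex III, mt-Cytb, was at 1599 CPM in HFD, 1022 in NCD, 1340 in KO and 1253 in WT cells. Its log2 ratio for HFD over NCD was 0.65 (0.62 to 0.67), and without it the mtDNA sum still stood at 0.19. Also past the rule in HFD were mt-Nd4l (1042 CPM in HFD and 730 CPM in NCD, 0.51), mt-Nd6 (53.2 CPM in HFD and 40.8 CPM in NCD, 0.38), mt-Atp8 (2084 CPM in HFD and 1602 CPM in NCD, 0.38) and mt-Nd4 (420 CPM in HFD and 333 CPM in NCD, 0.33). At the other end mt-Nd1 was at 624 CPM in HFD and 632 CPM in NCD cells (−0.02). Between them lay mt-Nd5 (0.28), mt-Atp6 (0.24), mt-Nd2 (0.17), mt-Co3 (0.17), mt-Nd3 (0.12), mt-Co1 (0.12) and mt-Co2 (0.07).

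Mitochondrial transcripts are read as long precursors from either strand and then cut into shorter RNAs, not all of which hold a single gene. In their order along the heavy-strand transcript, the 12 genes other than mt-Nd6 ran from mt-Nd1 (MT:2751-3707 in RefSeq GRCm38.p6), with a log2 ratio of −0.02, to mt-Cytb (MT:14145-15288), with 0.65. The rank correlation of start position and log2 ratio over these 12 genes was 0.72 for HFD over NCD. In KO over WT it was 0.71 over a narrower span, from mt-Nd1 at −0.10 (−0.14 to −0.06) to mt-Cytb at 0.10 (0.07 to 0.13). The 12 genes share libraries and transcripts, so both values are descriptions. Within strata of cells defined below, the diet value was 0.72 in cells with an Il1rl1 UMI, 0.34 in cycling cells and 0.70 in cells with none of these UMIs. For KO over WT it was 0.56, 0.46 and 0.55 in the same order, each below the value over all cells. The annotated genes overlap for mt-Atp8 and mt-Atp6 (43 bases), mt-Nd4l and mt-Nd4 (7 bases), mt-Nd5 and mt-Nd6 (14 bases) and mt-Atp6 and mt-Co3 (1 base). Of these, mt-Nd6 is read from the other strand, and the split of UMIs within the remaining pairs is uncertain.

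**Figure D2:**
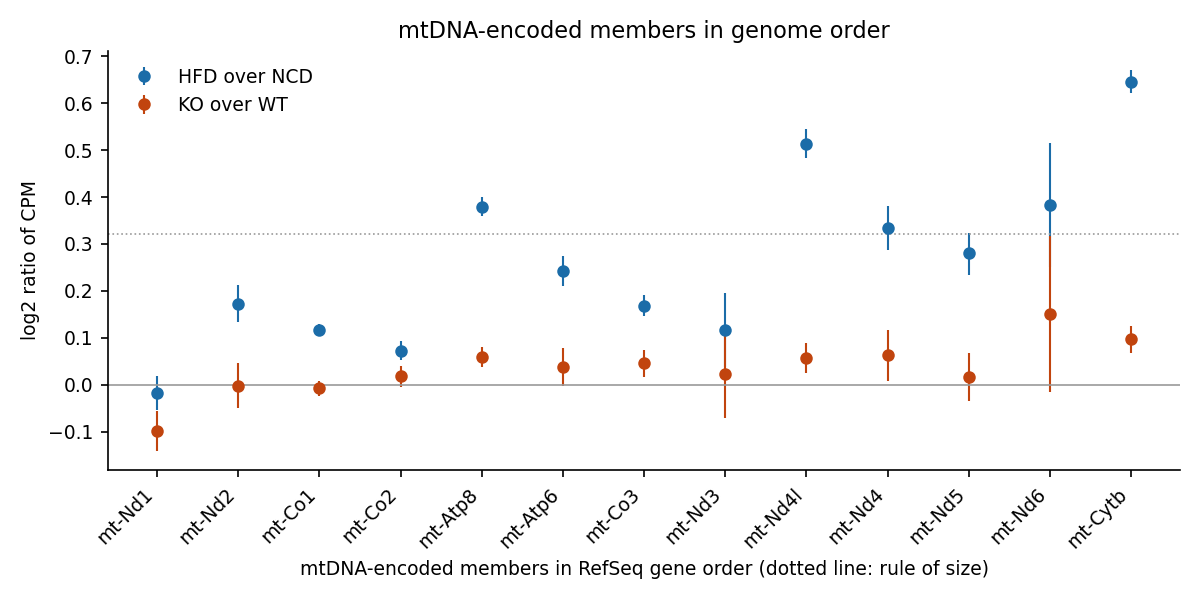
Log2 ratio of CPM for the 13 mtDNA members in genome order, HFD over NCD and KO over WT, with 95% counting intervals and a dotted line at the rule of size, 0.32. HFD over NCD runs from −0.02 at mt-Nd1 to 0.65 at mt-Cytb with mt-Atp8 and mt-Nd4l above their neighbours, and KO over WT stays between −0.10 and 0.15.

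The controls of the pools differed too. NCD cells had a log2 ratio of −0.04 over WT cells for the nuclear sum and −0.12 for the mtDNA sum. Of all 9778 genes, 5.26% were higher and 14.5% lower in NCD. Among the members, Cox7a2l (0.60), Ndufa9 (0.39) and mt-Co3 (0.33) were higher in NCD than in WT, and Ndufb4 (−1.54), Ndufa4 (−0.57), mt-Nd4l (−0.50) and mt-Atp8 (−0.45) lower. Ndufa4, mt-Nd4l and mt-Atp8 were thus lower in NCD than in each of the other conditions. Of the other mtDNA members past the rule in HFD, mt-Cytb and mt-Nd4 were also lowest in NCD, and mt-Nd6 was lowest in WT. In KO cells mt-Nd4l was at 1072 CPM and mt-Atp8 at 2276 CPM, beside 1042 and 2084 CPM in HFD cells. Pool, alleles and age of these controls cannot be told apart.

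The conditions also differ in which cells are present, so levels were set side by side within 3 strata cut on UMIs of other genes. Cycling cells held a Mki67 or Top2a UMI and made up 9.15% of HFD and 7.35% of NCD cells. Of the rest, cells with an Il1rl1 UMI made up 15.5% of HFD and 72.0% of NCD cells. The 75.3% of HFD and 20.7% of NCD cells left had none of these UMIs, and they may hold cells of several kinds. In the Srebf2 pool, cells with an Il1rl1 UMI made up 54.35% of KO and 66.45% of WT cells. Cells with none of these UMIs made up 38.85% of KO and 27.71% of WT cells. An Il1rl1 UMI is an imperfect mark. It was found in 17.6% of all HFD and 78.1% of all NCD cells (medians of 3194 and 3989 UMIs), and among barcodes with 2 or more UMIs of the B cell gene Cd79a, which should lack it, in 14.8% of HFD and 45.4% of NCD barcodes (medians of 4456 and 7737 UMIs). The HFD share is near that of its Cd79a barcodes. Those barcodes were deeper, and some may be pairs with a Treg cell of the same condition, so they give no clean background. Within the Il1rl1 stratum, Il1rl1 was at 735.5 CPM in HFD and 984 CPM in NCD cells.

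In cycling cells the nuclear members were at 22643 CPM (22494 to 22793) in HFD and 18085 CPM (17920 to 18251) in NCD cells, a log2 ratio of 0.32. Of 77 nuclear members 36 were higher and 0 lower, beside 26.0% and 24.0% of all genes. The highest were Ndufa4 (1.79), Uqcr10 (0.82), Atp5g1, Atp5g3 and Cox5b. The mtDNA members of the same cells differed little, at 13571 CPM in HFD and 13272 CPM in NCD (0.03), with 0 of 13 past the rule.

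Cycling cells of the diets were not alike in depth, in marker level or in Il1rl1. They had medians of 5999 UMIs in HFD and 5152 UMIs in NCD, and carried 7.23 Mki67 and Top2a UMIs per cell in HFD and 3.96 in NCD. Il1rl1 was at 77.4 CPM in cycling HFD and 709.6 CPM in cycling NCD cells. Cycling cells were not split by Il1rl1, and its part in their values was not tested. Set side by side at like marker counts, the nuclear sum was 19045 CPM in HFD and 16522 CPM in NCD at 1 or 2 such UMIs (306 and 308 cells). It was 25765 CPM in HFD and 21868 CPM in NCD at 3 to 9 UMIs (32 and 24 cells), and 25630 CPM in HFD and 21516 CPM in NCD at 10 or more (75 and 31 cells). The sum was higher in HFD in each of the 3 bins. Depth was alike only at 1 or 2 UMIs, with medians of 4655 UMIs in HFD and 4726 in NCD. The medians were 13583 UMIs in HFD and 9861 in NCD at 3 to 9, and 21904 in HFD and 16143 in NCD at 10 or more.

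In cells with an Il1rl1 UMI the pattern was the other way round between the genomes. Nuclear members were at 15475 CPM in HFD and 15317 CPM in NCD (log2 ratio 0.01, 0.00 to 0.03), and mtDNA members at 16272 CPM in HFD and 13471 CPM in NCD (0.27, 0.26 to 0.29). Here 9 of 90 members were higher, beside 22.8% of all genes, and 2 lower, beside 15.5%. The 9 were mt-Cytb, mt-Nd4l, mt-Nd6, mt-Atp8, mt-Nd4, mt-Nd5, Ndufa4, Ndufb4 and Ndufs4, and the 2 were Cox6a1 (182 CPM in HFD and 231 CPM in NCD, −0.35) and Cox5a. The difference between strata itself was not tested.

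In cells with none of these UMIs, nuclear members were at 16862 CPM in HFD and 16192 CPM in NCD (0.06, 0.04 to 0.07) and mtDNA members at 16831 CPM in HFD and 14958 CPM in NCD (0.17, 0.16 to 0.18). By the rule 2 of 90 members were higher, beside 13.6% of all genes, and 0 lower, beside 19.6%. The 2 were mt-Cytb (1712 CPM in HFD and 1205 CPM in NCD, log2 ratio 0.51) and mt-Nd6 (54.3 CPM in HFD and 40.8 CPM in NCD, 0.41). With both diets given the same mix of strata, the nuclear log2 ratio was 0.07 and the mtDNA log2 ratio 0.20. Here 5 members were higher, and the matching share of all genes was not computed. In KO over WT the 6 stratum sums lay between −0.03 and 0.03.

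Members past the rule in KO over WT were mostly in cycling cells, the smallest stratum (269 KO and 204 WT cells). There 2 of 90 were higher, beside 20% of all genes, and 4 lower, beside 16.9%. The shares of all genes include genes near the 5 CPM floor, where counting error is larger than for most members. Ndufs4 (0.34) and Ndufa4 (0.33) were higher, and Ndufb4 (−0.56), Ndufv1 (−0.41), Uqcrq (−0.39) and Ndufb3 (−0.39) lower, with an interval that reaches 0 for Ndufb4. In cells with an Il1rl1 UMI 0 were higher and 0 lower, beside 5.72% and 7.12% of all genes. In cells with none of these UMIs 1 was higher, Ndufs1 (0.33), beside 11.3% of all genes, and 0 lower, beside 11.1%. Ndufb3, Ndufb4 and Ndufs1 were named here after their values were seen.

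**Figure D3:**
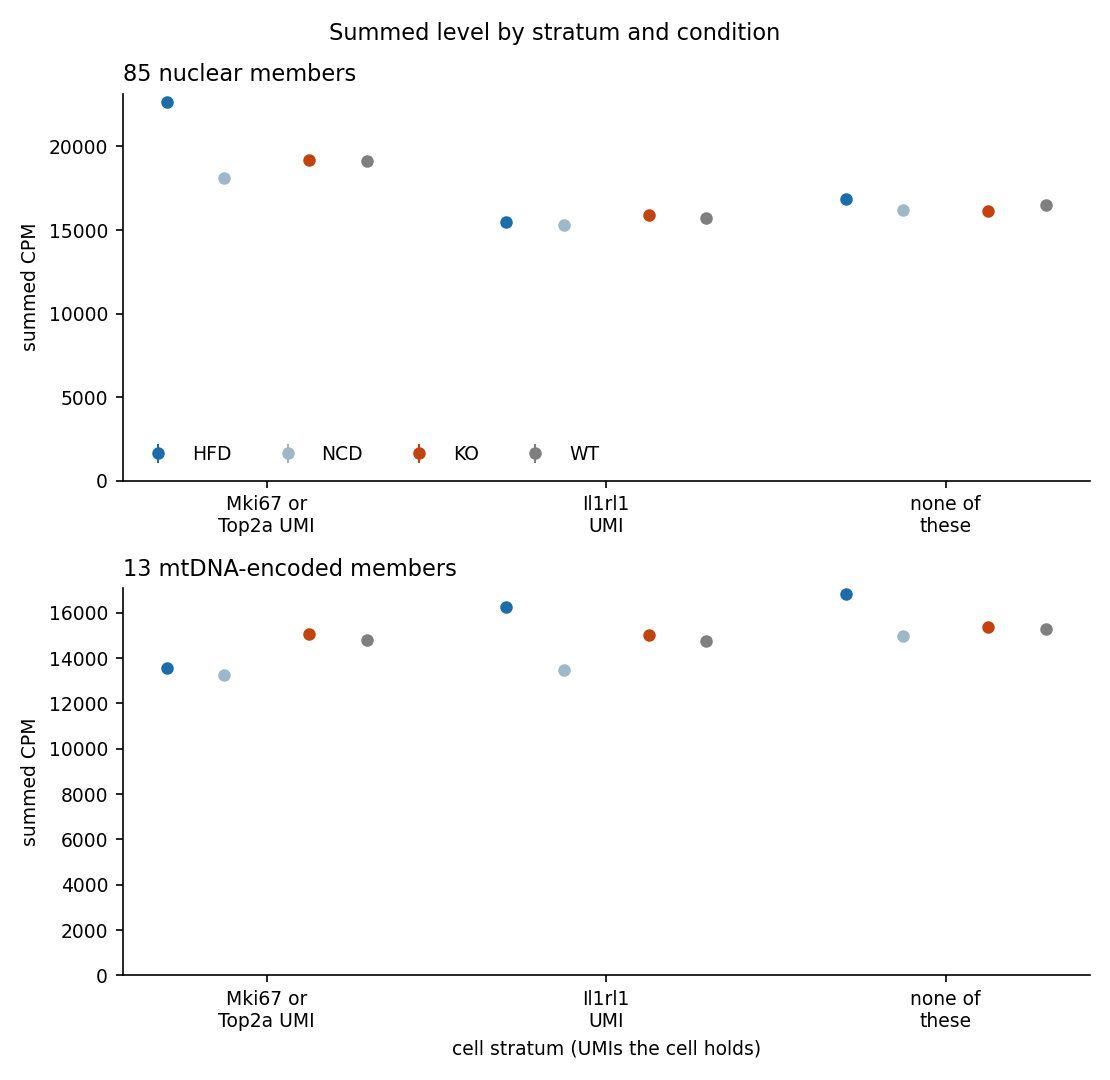
Summed CPM of the nuclear members (above) and of the mtDNA members (below) in 3 strata of cells, for HFD, NCD, KO and WT, with 95% counting intervals, most of them smaller than the points. The nuclear sum of cycling HFD cells, 22643 CPM, stands above the 3 other conditions, and the mtDNA sum is 16272 CPM in HFD and 13471 CPM in NCD cells with an Il1rl1 UMI.

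Ndufa4 varied between strata as well as between conditions. In cells with none of these UMIs it was at 255 CPM (246 to 264) in HFD, 214 (199 to 230) in NCD, 233 (220 to 247) in KO and 235 (218 to 252) in WT cells, and the KO and WT intervals overlap while those of the diets do not. In cells with an Il1rl1 UMI it was at 190 CPM (175 to 207) in HFD, 82.7 (78.3 to 87.2) in NCD, 153 (145 to 161) in KO and 128 (121 to 135) in WT cells, below the level of the cells with none of these UMIs in every condition. In cycling cells it was at 442 CPM (422 to 463) in HFD, 128 (114 to 142) in NCD, 256 (234 to 280) in KO and 203 (180 to 228) in WT cells. The log2 ratio of HFD over NCD was thus 0.25 (0.14 to 0.37) in cells with none of these UMIs, 1.20 (1.06 to 1.35) in cells with an Il1rl1 UMI and 1.79 (1.62 to 1.97) in cycling cells. In cycling cells with 1 or 2 marker UMIs it was at 296 CPM (271 to 322) in HFD and 113 CPM (97.6 to 130) in NCD. These cycling values are not matched for Il1rl1, which differed between cycling cells of the diets.

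**Figure D4:**
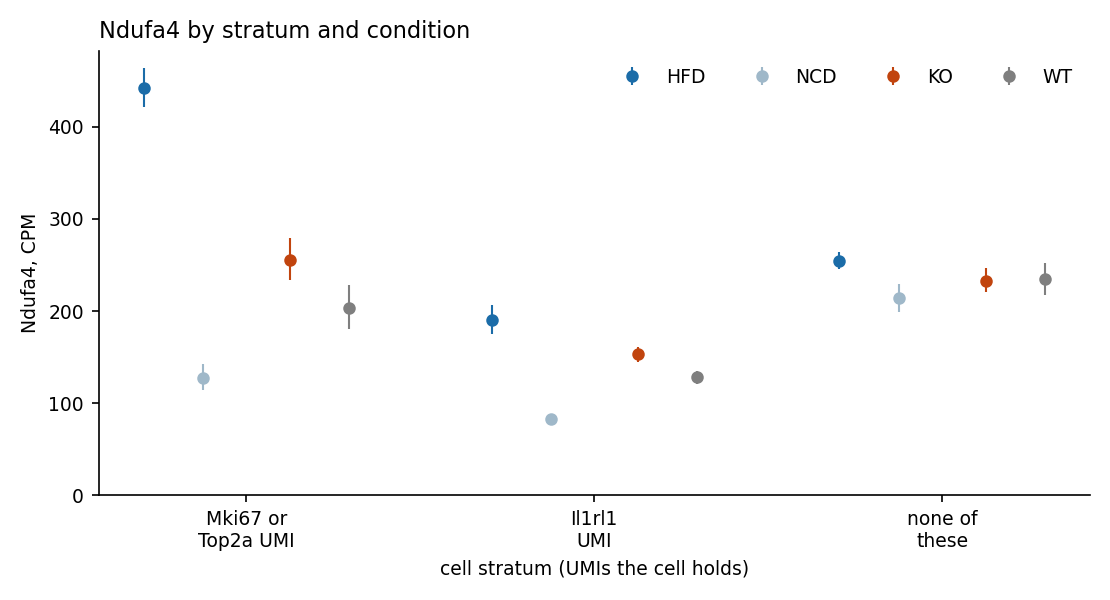
Ndufa4 CPM in 3 strata of cells for HFD, NCD, KO and WT, with 95% counting intervals. HFD and NCD intervals lie nearest in cells with none of these UMIs (255 and 214 CPM) and farthest apart in cycling cells (442 and 128 CPM).

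Levels also moved with the depth of a cell. In cells of 8000 UMIs or more, the nuclear sum was 22997 CPM in HFD, 17821 in NCD, 20960 in KO and 20358 in WT cells, and in cells of 2000 to under 4000 UMIs it was 15792, 15452, 15145 and 15339 CPM in the same order. In cells under 2000 UMIs the mtDNA sum was lower in HFD, at 22529 CPM (22248 to 22813), than in NCD, at 24225 CPM (23767 to 24691). These were 15.8% of HFD and 5.79% of NCD cells. In cells of 2000 to under 4000 UMIs the mtDNA sum was 16634 CPM in HFD and 14062 CPM in NCD. Cells of 8000 UMIs or more were 305 of 4512 in HFD and 353 of 4938 in NCD, and gave 23.8% of the UMIs in HFD and 17.7% in NCD. Pairs of cells from the same condition cannot be found by hashtags and remain among them, and their part was not tested. At 8000 UMIs or more, cells held a mean of 8.69 Mki67 and Top2a UMIs in HFD and 3.13 in NCD. The mean was 2.41 in KO and 2.99 in WT cells of that depth. At 2000 to under 4000 UMIs it was 0.0573 in HFD, 0.0405 in NCD, 0.0405 in KO and 0.0344 in WT cells. Depth and cycling were not separated here. Taken per cell, the median share of nuclear members was 1.59% of UMIs in HFD, 1.53% in NCD, 1.58% in KO and 1.58% in WT cells, so the diets lie closer by this measure than by the sum.

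The share of nuclear members per cell had a small second mode near 0. It coincided with cells of few ribosomal protein UMIs, and a limit of 5% on that share, set after these values were seen, split them off without using the members. Under it lay 159 HFD (3.52%), 107 NCD (2.17%), 289 KO (7.31%) and 272 WT cells (7.79%). In these cells the median share of nuclear members was 0.223% in HFD, 0.207% in NCD, 0.220% in KO and 0.225% in WT, against 1.61%, 1.54%, 1.61% and 1.61% in the other cells. The mtDNA members went the opposite way, with medians of 3.56% in HFD, 2.69% in NCD, 2.07% in KO and 2.05% in WT, against 1.55%, 1.31%, 1.42% and 1.39%. The nuclear noncoding RNA Malat1 was at 27734 CPM in HFD and 32622 CPM in NCD cells of this kind, against 7427 CPM (HFD) and 8293 CPM (NCD) in the others. Foxp3 was at 360 CPM in HFD and 423 CPM in NCD cells of this kind, against 159 CPM (HFD) and 211 CPM (NCD) in the others. They were shallower, with medians of 1352 UMIs in HFD and 1627 in NCD.

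**Figure D5:**
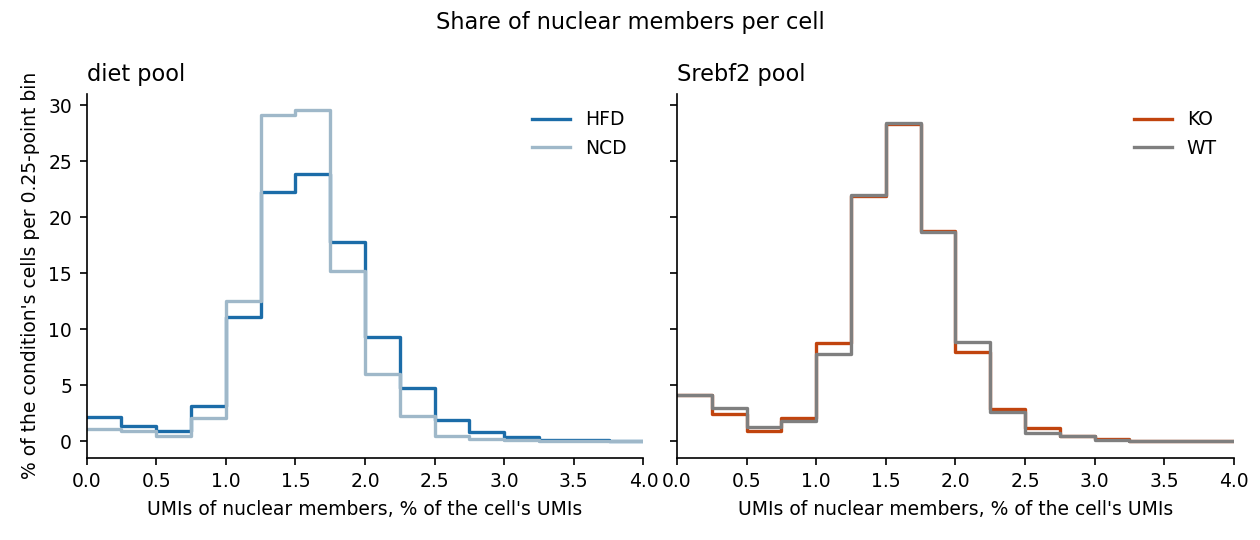
Distribution over cells of the nuclear members' share of a cell's UMIs, in bins of 0.25 percentage points, for HFD and NCD (left) and KO and WT (right). The main mode lies near the medians of 1.53 to 1.59%, a small second mode lies near 0, and the KO and WT curves nearly coincide.

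Other mitochondrial genes were taken from 8 lists, and each count below stands beside the 23.6% of all genes higher and 15.8% lower in HFD over NCD. In no list was the share of genes called higher above that of all genes, and complex I assembly was the 1 list with a larger share called lower. In HFD over NCD, 5 of 27 protein import genes (18.5%) were higher and 0 lower (median log2 ratio 0.18), led by the inner membrane translocase subunit Timm17b at 64.3 CPM in HFD and 43.6 CPM in NCD (0.56). Of 78 mitochondrial ribosome genes 13 (16.7%) were higher and 1 lower (median 0.07). Mrps6 of the small subunit was at 135 CPM in HFD and 64.1 CPM in NCD (1.08), and Mrpl33 of the large subunit at 187 CPM in HFD and 256 CPM in NCD (−0.45). Of 18 TCA cycle and pyruvate dehydrogenase genes 2 were higher and 0 lower (median 0.12), Fh1 and Idh2. The mitochondrial isocitrate dehydrogenase Idh2, named after its value was seen, was at 18.2 CPM in HFD and 6.13 CPM in NCD (1.57), fumarate hydratase Fh1 at 0.42 and Ogdh at −0.21.

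Assembly factors showed no common direction. For complexes II to V, 3 of 32 were higher and 2 lower (median 0.01), with the complex II factor Sdhaf1 at 79.0 CPM in HFD and 27.8 CPM in NCD (1.51) and the complex III factor Uqcc2 at 72.7 CPM in HFD and 99.5 CPM in NCD (−0.45). For complex I, 3 of 15 were higher (20%) and 3 lower (20%) (median 0.05). Of 26 genes of mtDNA expression and biogenesis 5 were higher and 3 lower (median 0.08), with Grsf1, which binds mitochondrial RNA, at 0.68, Lrpprc, which stabilises mitochondrial mRNA, at 0.47, the receptor gene Esrra at −0.36 and Myc at −0.74. Of 20 carriers and electron donors 1 was higher and 2 lower (median −0.01), with the electron transfer flavoprotein subunit Etfb at 94.6 CPM in HFD and 163 CPM in NCD (−0.79). Of 13 antioxidant and uncoupling genes 1 was higher and 1 lower (median −0.04), the glutathione peroxidase Gpx1 being at 252 CPM in HFD and 402 CPM in NCD (−0.67).

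In KO over WT these lists held 3 genes past the rule in all, 1 higher among the assembly factors of complexes II to V and 1 higher (Grsf1, 0.36) and 1 lower in mtDNA expression and biogenesis, beside 5.41% of all genes higher and 4.90% lower. Their medians lay between −0.09 and 0.04.

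Other measures moved with the diet beside all these results. The 5 dissociation-response genes (Fos, Jun, Atf3, Hspa1a, Hspa1b) summed to 680 CPM in HFD and 3673 CPM in NCD cells, with none at 0. The 2 erythroid genes summed to 243 CPM in HFD and 72.0 CPM in NCD, the 2 endothelial genes to 89.7 CPM in HFD and 24.7 CPM in NCD, and the 3 stromal genes to 25.2 CPM in HFD and 0.856 CPM in NCD, with 1 stromal gene at 0 in NCD. Of the endothelial sum, Pecam1 made up 88.8 CPM in HFD and 24.3 CPM in NCD. Cdh5 was at 0.863 CPM in HFD and 0.450 CPM in NCD. The part of all these genes in the results was not tested. In the Srebf2 pool the dissociation genes summed to 2589 CPM in KO and 3408 CPM in WT cells, and the erythroid genes to 65.2 CPM in KO and 357 CPM in WT cells.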

How the data were processed

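VAT Treg cells, sorted live as CD3+ CD4+ Foxp3+, were hashtagged, pooled 1:1 and profiled with a 10x 5′ kit, per the labels' protocols. The authors deposited raw UMI counts per gene and barcode. Per the file headers they came from Cell Ranger 7.1.0 (Srebf2 pool) and 7.0.1 (diet pool), while the submitters' processing notes name 7.0.1 and mm10 for both.

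Barcodes were kept at 500 or more genes, under 10% mt- UMIs, 90% or more of hashtag UMIs on their own hashtag, and 0 UMIs of Cd79a, Lyz2 and Cd8a. The mt- limit bounds the mtDNA members and removed 11 and 14 barcodes. Hashtags remove pairs of cells from different conditions only. Counts were summed per condition and divided by all UMIs (CPM). Log2 ratios (HFD over NCD, KO over WT) had 0.5 counts added. Intervals at 95% are exact Poisson for CPM and exact binomial splits for ratios. With 1 pooled sample per condition no test was run.

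The members, lists and strata were chosen with earlier results of these data known. Named were all mt- and Sdh members, those past the rule of size, the 6 highest and 6 lowest at 20 CPM or more, tissue isoforms, and extreme list genes. Coa1 and Fastkd4 of the lists were not matched. Ratios were checked on simulated data. Alternatives included HTODemux (Seurat 5.3.0, quantile 0.99), other limits, thinning to 2000 UMIs and strata. A marker gene and the strata that need it are not reported here, so cells outside the cycling and Il1rl1 strata were kept as 1 stratum, other than planned. Python 3.11.15 with scipy 1.17.1 was used, and names, coordinates and promoters came from RefSeq GRCm38.p6.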

Additional observations from a re-analysis of the deposited data

How the results depend on the processing

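No paired analysis was possible because each condition is 1 pooled sample without replicates. Every alternative kept the diet sums above 0, but their size depended on which cells were counted. The nuclear log2 ratio for HFD over NCD (0.18) became 0.17 with HTODemux singlets, 0.21 with Cd79a, Lyz2 and Cd8a cells kept, 0.10 with ratios centred on the median of all genes, 0.10 thinned to 2000 UMIs, 0.06 as the mean of per-cell shares, 0.10 without cycling cells, 0.015 in cells with an Il1rl1 UMI, 0.058 in cells with no Il1rl1, Mki67 or Top2a UMI (unmarked cells), and 0.068 with strata reweighted. Under the same settings the mtDNA log2 ratio (0.23) became 0.24, 0.18, 0.15, 0.25, 0.28, 0.28, 0.27, 0.17 and 0.204. It was 0.22 with an mt- limit of 5% and 0.22 without cells under 5% ribosomal protein UMIs, a setting chosen after seeing the data.

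The 14 members higher in HFD became 6 with centred ratios, 9 by per-cell means, 9 in cells with an Il1rl1 UMI, 2 in unmarked cells, 5 with strata reweighted and 2 at 1.5-fold. Beside these, 22.8% of all genes were higher in cells with an Il1rl1 UMI and 13.6% in unmarked cells. For the other settings the share of all genes was not computed. The 0 lower became 2 when thinned, 1 by per-cell means, 2 in cells with an Il1rl1 UMI and 2 with no floor. Ndufs4 (0.33) reversed to −0.004 in unmarked cells. Under the 14 settings that give member values, mt-Cytb stayed past the rule of size in 14, Ndufa4 in 13, Atp5g2 in 5 and the others in between.

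The nuclear log2 ratio for KO over WT (0.012) reversed to −0.005 when thinned and to −0.030 in unmarked cells, and was 0.001 reweighted. The mtDNA value (0.026) was 0.009 with HTODemux, 0.013 with Cd79a, Lyz2 and Cd8a cells kept, 0.034 thinned and 0.009 in unmarked cells. Higher members (0) became 1 when thinned, 1 in unmarked cells (beside 11.3% of all genes) and 1 with no floor, where 1 was lower. Apart from what each setting leaves out or weights, causes were not tested. Depth limits the rarer strata and the 8 members under 5 CPM.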
